A study of Danio rerio with 12 samples.

Results

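Female and male livers were compared in wild-type adults of the zebrafish, Danio rerio. The fish had been given only the solvent DMSO, daily for 6 weeks, starting 3 months after fertilization, and each lived in a tank of its own so that feeding could be controlled. All 6 libraries given DMSO entered the comparison, 3 from females and 3 from males, out of 12 in the series; the other 6 came from females and males given β-estradiol. Both groups are wild type and carry no transgene, and both received DMSO, so a sex difference here is one in the presence of the solvent. The labels number the male and the female libraries in separate ranges without saying what the numbers mark, so a difference that goes with them and one of sex cannot be told apart. They give no strain, and do not say whether livers were pooled or whether every library stands for another fish. For the DMSO comparison a standard error (SE), where given, is that of the log2 difference over n = 3 libraries per sex, moderated across genes. A p-value here sets that difference against the spread among libraries within each sex, pooled over both sexes and moderated across genes. It takes no account of anything else that goes with the library numbers. Expression was measured by RNA sequencing of whole dissected liver and is given in FPKM, fragment numbers scaled to transcript length and to the size of the library. Of 14581 genes in the table, 7646 reached 1 FPKM in 3 or more of these 6 libraries and were tested. A further 18 genes, listed at exactly 0 in every library of 1 sex, were set apart, and 6917 fell below the filter. The title of the study names a sex difference in liver growth and cancer and signalling through PI3K and mTOR, and the comparison asks how the livers of the 2 sexes differ without added hormone.

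In egg-laying fish the liver of the mature female is an organ of reproduction as well as of metabolism. Estradiol from the ovary reaches hepatocytes and binds the nuclear estrogen receptor Esr1, which switches on genes for secreted egg proteins and, in many fish, its own gene; the secretory load is met by ribosomes and by the endoplasmic reticulum. Livers of both sexes also make the plasma proteins, break down amino acids, build and burn fat and clear steroids and drugs, and in mammals many of these enzymes differ between the sexes under androgen, estrogen and growth hormone. Roles given below for single genes are those known for their vertebrate counterparts, mostly from mammals.

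Hepatocyte genes were abundant: fabp10a, the liver fatty acid binding protein, was the highest gene of every library, at 35078, 32209.5 and 50080.0 FPKM in females and 68625, 82284 and 69565 FPKM in males. Sets of 3 values are given in the order of replicates 1 to 3 throughout. Transcripts of other organs were present, and 2 libraries stood apart. The mean log2(FPKM + 1) over 44 genes of the intestine was 4.85, 4.95 and 2.03 in females and 2.25, 2.36 and 1.93 in males, so that female replicates 1 and 2 were high and female replicate 3 lay within the male range. Over 52 genes of ovary and oocyte it was 1.35, 2.61 and 0.54 in females, against 0.18 to 0.32 in males, highest in female replicate 2. Genes of the exocrine pancreas were at 6.92, 4.92 and 6.26 in females and 5.78 to 6.12 in males, so the sexes overlapped. Leukocyte, endothelial and red blood cell markers overlapped as well, at 1.55 to 1.74, 1.28 to 1.46 and 2.41 to 3.12 in females and 1.19 to 1.69, 1.22 to 1.56 and 2.53 to 3.34 in males. At 1 FPKM or more stood 42, 38 and 16 of the intestine genes in females and 13 to 22 in males, and 30, 36 and 11 of the ovary genes in females and 2 to 3 in males. The summed level of the ovary list was 33.9 to 689.7 FPKM in females and 19.1 to 31.9 FPKM in males, and that of the intestine list was 3303 to 10608 FPKM and 5104 to 5942 FPKM. In a dissected organ, fewer cells of a type and less RNA per cell cannot be told apart. The sum of FPKM per library was 791666 to 906620 in females and 660052 to 731829 in males; depth is unknown, since the table holds no counts.

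**Figure D1:**
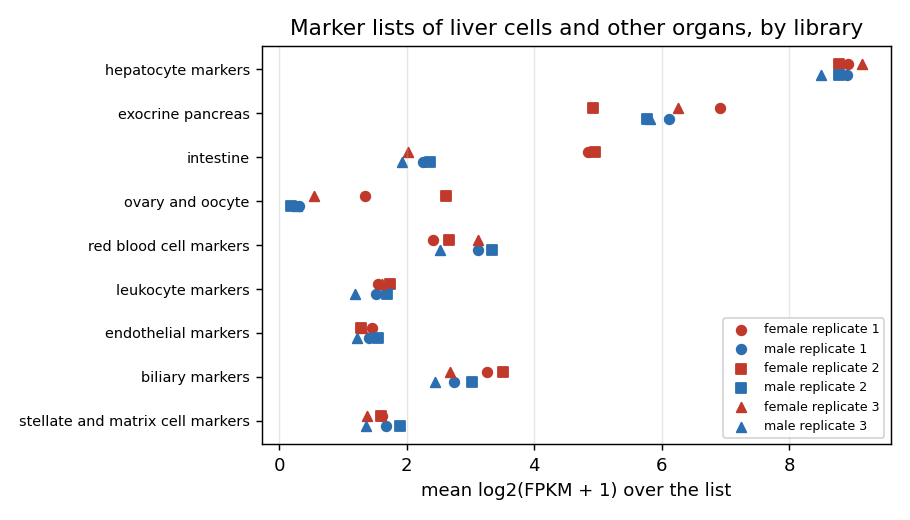
Mean log2(FPKM + 1) of each marker list (rows) in each of the 6 DMSO libraries, females in red and males in blue, with a symbol for each replicate number. Female replicates 1 and 2 lie near 4.9 on the intestine row and every other library between 1.93 and 2.36. The sexes overlap on the hepatocyte row, but its means include apoa2 and apoa1b, which are listed at exactly 0 in every male. Of the 25 hepatocyte markers tested, 12 were lower in females (48%, against 4.62% over all genes) and none higher (against 7.78%).

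The libraries separated first by sex. The first principal component of the tested genes carried 52.9% of the variance and placed the 3 females on one side and the 3 males on the other. The second carried 18.4% and set replicate 3 of both sexes apart from the other 4 libraries. Over these genes, female replicate 3 had a Spearman correlation of 0.877 with male replicate 3 and of 0.874 and 0.898 with female replicates 2 and 1. By limma on log2(FPKM + 1), with Benjamini-Hochberg adjustment over all 7646 genes and a threshold of 0.05, 948 genes differed between the sexes, which is 12.4% of those tested. Of them, 595 were higher in females (7.78%) and 353 were lower (4.62%), while the median log2 difference over all genes was 0.01. The 2 sexes did not overlap for 2495 genes, or 32.6%, and this held for every 1 of the 948. A lack of overlap given below for a gene with a call therefore adds nothing to that call. On the log2 scale the median size was 1.33 for the higher and 1.41 for the lower genes. A size of at least 1 was reached by 497 and 318 of them, at least 2 by 90 and 56, and at least 3 by 38 and 14. Among the 595 higher genes, 27 spanned more than 5-fold among the 3 females.

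The number of calls depended on single libraries. It was 268 without female replicate 1, 287 without male replicate 1 and 301 without male replicate 2, against 656 to 908 without each of the others. Because none of the 948 genes overlapped between the sexes, no direction could change in these 6 fits. Past the threshold in all 6 stayed 128 of the 595 higher and 72 of the 353 lower genes. Without female replicates 1 and 2, the 2 libraries rich in intestine transcripts, 25 genes were higher and 23 lower; the only female left was then assumed to vary as the males do. With the mean level of the intestine list as a covariate, 46 were higher and 30 lower. Intestine genes matched only by a synonym were not in that mean. Of 130 genes named for this comparison with a call, 30 kept it with that covariate and 22 without both females. Leaving out intestine, pancreas and ovary genes held under their list names left 7596 genes in the test and gave 612 higher and 368 lower. Genes of these lists matched only by a synonym stayed in. FPKM are shares of a library, so the split also depends on scaling: 595 higher against 353 lower became 527 against 486 after quantile normalization, and 398 against 819 after scaling to a common sum without the 10 highest genes, which moved the median of all genes by -0.24.

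**Figure D2:**
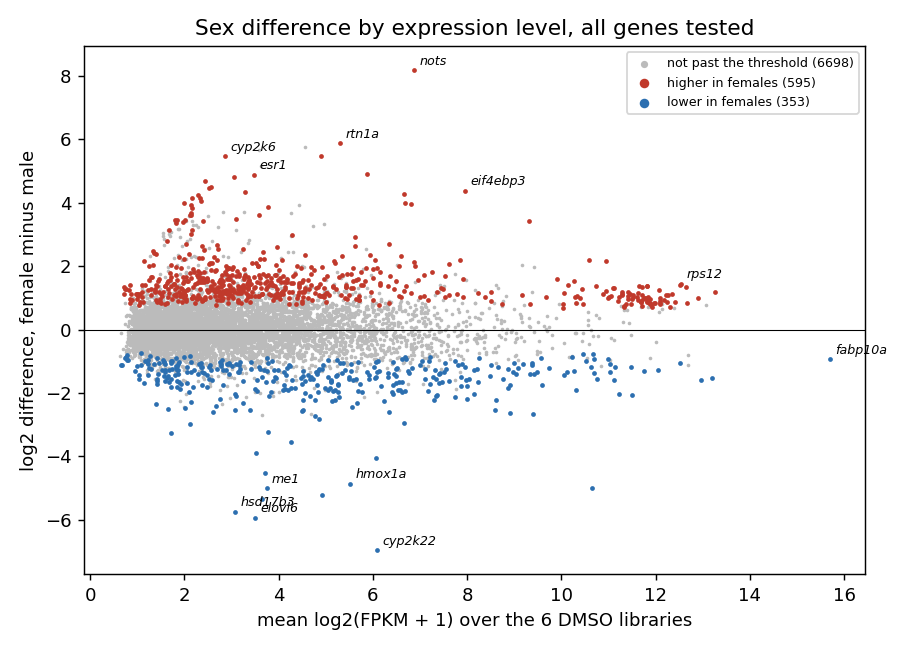
Log2 difference, female minus male (vertical axis), against the mean log2(FPKM + 1) over the 6 DMSO libraries (horizontal axis) for the 7646 genes tested, with genes past the threshold in red (595, higher in females) or blue (353, lower). The extremes are nots at 8.19 and cyp2k22 at -6.96, and a dense red group of highly expressed genes lies near 1.

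Among the genes named for the largest higher values, nots, rtn1a, cyp2k6, rcn3, fabp2 and esr1 stood furthest above the male level. nots, the gene of nothepsin, an aspartic protease known in fish from the female liver, was at 2153, 2260.4 and 1650.4 FPKM in females and 6.68, 3.34 and 8.68 FPKM in males. Its lowest female value was 190.1-fold above its highest male value. The difference for nots was 8.19 (log2, SE 0.33, adjusted p = 5.64e-05). rtn1a encodes a reticulon, a protein that shapes the endoplasmic reticulum, and was at 446, 229 and 269 FPKM in females and 4.23, 3.59 and 4.69 FPKM in males. The difference for rtn1a was 5.88 (log2, SE 0.297, adjusted p = 1.59e-04). rcn3, a calcium-binding reticulocalbin of the secretory pathway, was at 278, 157 and 176 FPKM in females and 1.56, 2.99 and 7.66 FPKM in males, with the lowest female 20.5-fold above the highest male (log2 difference 5.48, SE 0.45, adjusted p = 0.00174). cyp2k6, a member of a cytochrome P450 family, was at 59.96, 71.2 and 24.97 FPKM in females and 0.128, 0 and 0.144 FPKM in males and was close to 0 in every male. The difference for cyp2k6 was 5.48 (log2, SE 0.39, adjusted p = 7.13e-04).

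Higher in females as well were flvcr1, a transporter known as an exporter of heme, ppm1la, a protein phosphatase, and eif4ebp3, whose product binds the cap-binding factor eIF4E and holds back translation. flvcr1 was the most even of them among females, at 18.5, 20.6 and 22.1 FPKM in females and 0, 0.231 and 0.191 FPKM in males. The difference for flvcr1 was 4.23 (log2, SE 0.22, adjusted p = 1.59e-04). eif4ebp3 was at 1493, 791 and 1219.6 FPKM in females and 95.2, 79.9 and 19.6 FPKM in males, lowest in male replicate 3 (log2 difference 4.38, SE 0.56, adjusted p = 0.00784). ppm1la was at 43.997, 28.7 and 63.5 FPKM in females and 2.18, 0.812 and 0.791 FPKM in males. The difference for ppm1la was 4.34 (log2, SE 0.37, adjusted p = 0.00174). These genes, like nots, rtn1a, rcn3, cyp2k6 and esr1, stayed past the threshold whichever library was left out. All but eif4ebp3 also stayed past it without female replicates 1 and 2, where the log2 difference was 7.91 for nots, 5.71 for rtn1a and 4.35 for flvcr1, while eif4ebp3 had 4.49 and an adjusted p of 0.0688.

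Of the 12 named genes with the largest higher values, 4 depended on single libraries. Of these, fabp2, cldnd and dopey2 were higher in female replicates 1 and 2 than in female replicate 3, as the intestine and ovary lists were. fabp2 is itself on the intestine list and in the covariate made from it, and cldnd is on the ovary list. Their likeness to these lists is therefore partly built in. fabp2, the fatty acid binding protein of the intestine, was at 612, 1122 and 47.3 FPKM in females and 23.6, 12.3 and 2.69 FPKM in males; female replicates 1 and 2 were high and female replicate 3 was 2.004-fold above male replicate 1. The difference for fabp2 was 4.92 (log2, SE 1.16, adjusted p = 0.0311). cldnd, a claudin gene on the oocyte list, was at 26.6, 115 and 5.74 FPKM in females and 0.661, 0 and 0.1498 FPKM in males, and dopey2 was at 25.5, 164 and 3.54 FPKM in females and 0.338, 0.0662 and 0.279 FPKM in males, both highest in female replicate 2. With the intestine covariate the log2 differences of fabp2, cldnd and dopey2 became 2.27, 2.602 and 2.11 (adjusted p = 0.1496, 0.104 and 0.198). Without both intestine-rich females they became 2.18, 2.44 and 1.89 (adjusted p = 0.279, 0.0595 and 0.0642), so that no call remained in either fit. odc1, the ornithine decarboxylase that opens polyamine synthesis, was at 302, 448 and 651 FPKM in females and 17.98, 4.76 and 109 FPKM in males (log2 difference 4.28, SE 0.93, adjusted p = 0.0239), with male replicate 3 well above the other males. The call of fabp2 was lost without female replicate 1 (adjusted p = 0.102), female replicate 2 (0.0773), male replicate 1 (0.0611), male replicate 2 (0.0806) or male replicate 3 (0.0748), that of cldnd without female replicate 1 (adjusted p = 0.0616), male replicate 1 (0.0559) or male replicate 2 (0.0652), that of dopey2 without female replicate 1 (adjusted p = 0.0948), male replicate 1 (0.0925), male replicate 2 (0.101) or male replicate 3 (0.0695), and that of odc1 without female replicate 1 (adjusted p = 0.0643), female replicate 2 (0.0582), male replicate 1 (0.0809) or male replicate 2 (0.0533).

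**Figure D3:**
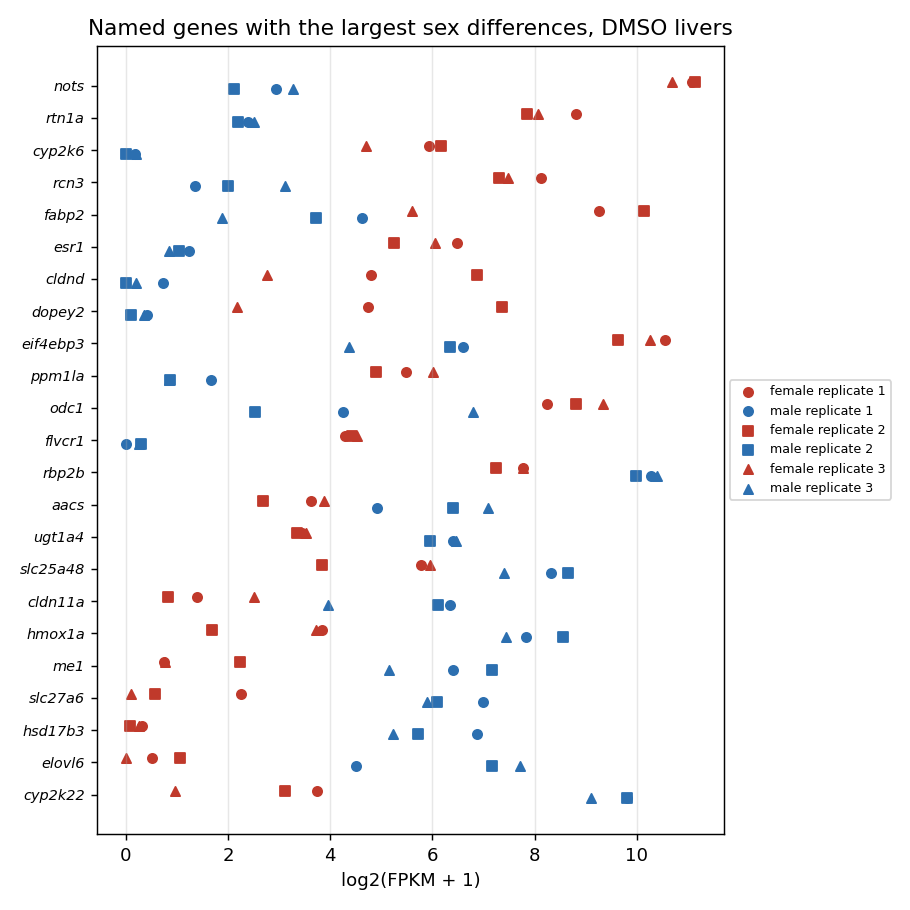
log2(FPKM + 1) of the 12 named genes with the largest higher values and 11 of those with the largest lower values in females (rows, ordered by difference) in each DMSO library, females in red and males in blue. Genes were picked for having no overlap between the sexes, so no row could overlap. The 3 females are spread widest for fabp2, cldnd and dopey2.

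Among the genes named for the largest lower values, cyp2k22, elovl6, hsd17b3, slc27a6 and me1 stood furthest below the male level. cyp2k22, of the same P450 family as cyp2k6, was at 12.3, 7.697 and 0.957 FPKM in females and 890.2, 891 and 546 FPKM in males, and its lowest male value was 44.3-fold above its highest female value (log2 difference -6.96, SE 0.65, adjusted p = 0.002605). hsd17b3, the 17β-hydroxysteroid dehydrogenase that converts androstenedione to testosterone, was at 0.2398, 0.0497 and 0.187 FPKM in females and 117, 51.8 and 36.6 FPKM in males, near 0 in every female. The difference for hsd17b3 was -5.74 (log2, SE 0.41, adjusted p = 7.13e-04). elovl6, an elongase of long-chain fatty acids, was at 0.429, 1.096 and 0 FPKM in females and 21.7, 143 and 209 FPKM in males, with male replicate 1 the lowest of the males. The difference for elovl6 was -5.93 (log2, SE 0.77, adjusted p = 0.00784). me1, the cytosolic malic enzyme that supplies NADPH for fat synthesis, was at 0.681, 3.71 and 0.697 FPKM in females and 84.01, 144 and 34.3 FPKM in males (log2 difference -4.99, SE 0.59, adjusted p = 0.00578).

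Of the other genes with large differences, slc27a6, a fatty acid transport protein, was at 3.76, 0.4799 and 0.0757 FPKM in females and 126, 66.9 and 58.6 FPKM in males. The difference for slc27a6 was -5.35 (log2, SE 0.56, adjusted p = 0.00426). hmox1a, the heme oxygenase that degrades heme, was at 13.4, 2.22 and 12.2 FPKM in females and 227, 373 and 173 FPKM in males, with no overlap and with female replicate 2 lowest. The difference for hmox1a was -4.86 (log2, SE 0.58, adjusted p = 0.00607). The glucuronosyltransferase gene ugt1a4 and the retinol binding protein gene rbp2b differed by -2.83 and -2.63. The 8 lower genes named so far kept their call in each fit that left out 1 library. cldn11a, a claudin of tight junctions (-3.89), slc25a48, a mitochondrial carrier (-2.94), and aacs, the acetoacetyl-CoA synthetase that returns ketone bodies to lipid synthesis (-2.74), did not. cldn11a lost it without female replicate 1 (adjusted p = 0.0536), male replicate 1 (0.0502) or male replicate 2 (0.0509), slc25a48 without male replicate 1 (adjusted p = 0.0682) or male replicate 2 (0.0687) and aacs without female replicate 1 (adjusted p = 0.0616), female replicate 2 (0.0536) or male replicate 2 (0.0724). Without both intestine-rich females, elovl6 lost its call (adjusted p = 0.0644) and the other 7 of the 8 kept theirs. The cyp2k and ugt genes belong to multigene families with near-identical copies, and how the authors' counting divided shared reads is not given in the sources used here.

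In a list of steroid hormone receptors and related genes, 1 of 11 tested was higher in females and 1 was lower (9.09% each). The shares over all genes were 7.78% and 4.62%. esr1, the nuclear estrogen receptor of the liver, was at 88.5, 36.99 and 65.5 FPKM in females and 1.35, 1.06 and 0.785 FPKM in males, and the lowest female stood 27.3-fold above the highest male (log2 difference 4.89, SE 0.34, adjusted p = 7.13e-04). The other estrogen receptor genes did not pass the test: esr2b was at 24.5, 14.3 and 29.4 FPKM in females and 9.73, 3.98 and 13.3 FPKM in males, without overlap (log2 difference 1.32, SE 0.44, adjusted p = 0.0919), and esr2a was at 1.4004, 1.67 and 2.69 FPKM in females and 1.001, 1.84 and 1.45 FPKM in males with overlap (adjusted p = 0.565). The androgen receptor gene ar was at 13.7, 4.603 and 11.98 FPKM in females and 19.1, 6.598 and 5.77 FPKM in males and the sexes overlapped. The difference for ar was 0.02 (log2, SE 0.51, adjusted p = 0.987). pgrmc1, a membrane heme protein that binds progesterone, was lower, at 73.1, 62.4 and 90.6 FPKM in females and 225, 162 and 141 FPKM in males (log2 difference -1.200, SE 0.27, adjusted p = 0.0258), a call that was lost without female replicate 1 (adjusted p = 0.0854), female replicate 2 (0.0675), male replicate 1 (0.0841) or male replicate 2 (0.0783). The remaining 6, which were pgr, pgrmc2, nr3c1, nr0b1, nr0b2a and esrra, had log2 differences from -0.67 for nr3c1 to 1.27 for nr0b2a, and none passed.

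Enzymes and carriers of sex steroids went both ways. Of 14 tested, 2 were higher (14.3%, against 7.78% over all genes) and 3 lower in females (21.4%, against 4.62%). Of the lower, 2 were hsd17b3 and shbg. shbg encodes the plasma globulin that binds sex steroids and was at 168, 127 and 220.4 FPKM in females and 539.8, 488 and 578 FPKM in males. The difference for shbg was -1.66 (log2, SE 0.25, adjusted p = 0.00919). On the higher side, srd5a2a, a 5α-reductase that converts testosterone to dihydrotestosterone, was at 203, 184 and 276 FPKM in females and 68.3, 41.5 and 26.8 FPKM in males (log2 difference 2.33, SE 0.36, adjusted p = 0.009604). hsd17b12a, a dehydrogenase of fatty acid elongation that can also reduce estrone, was at 7.02, 14.9 and 18.95 FPKM in females and 1.39, 1.48 and 2.64 FPKM in males. The difference for hsd17b12a was 2.29 (log2, SE 0.38, adjusted p = 0.0117). Both were without overlap and kept their call in each fit that left out 1 library. srd5a2a lost its call with the intestine covariate (adjusted p = 0.0561) and without both intestine-rich females (0.0842), and hsd17b12a kept its call in both. hsd3b7, an enzyme of bile acid synthesis, was at 23.8, 18.1 and 23.7 FPKM in females and 284, 55.1 and 86.3 FPKM in males, its male values being led by replicate 1 (log2 difference -2.299, SE 0.54, adjusted p = 0.0315), and lost the call without female replicate 1 (adjusted p = 0.08599), female replicate 2 (0.0826), female replicate 3 (0.0522) or male replicate 3 (0.05099).

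Genes of the machinery that makes ribosomes were higher in females. Of 69 tested genes of ribosome biogenesis, all 69 had a higher mean in females. The test was passed by 54 (78.3%, against 7.78% higher over all genes), and none was lower (against 4.62%). The median log2 difference was 1.36, against 0.01 over all genes. polr1d, a subunit of RNA polymerases I and III, was at 33.8, 23.8 and 24.5 FPKM in females and 4.87, 4.94 and 5.23 FPKM in males. The difference for polr1d was 2.22 (log2, SE 0.24, adjusted p = 0.00481). rrp9, a protein of the U3 particle that processes ribosomal RNA, was at 15.9, 13.6 and 16.4 FPKM in females and 3.32, 2.61 and 3.64 FPKM in males (log2 difference 1.96, SE 0.23, adjusted p = 0.00578). wdr43 and mak16, both factors of ribosome assembly in the nucleolus, differed by 1.97 and 1.89, and none of these 4 overlapped between the sexes or lost its call without any 1 library; with the intestine covariate 4 of the 4 kept it, and without both intestine-rich females 0. The summed level of the list was 2029 to 2230.1 FPKM in females and 689 to 802 in males. The count was 23 without female replicate 1 and 30 without male replicate 1 or male replicate 2, and 0 (with 49 at an unadjusted p under 0.05) without both intestine-rich females, where the median log2 difference was 1.34.

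Genes of the ribosomal proteins themselves were mostly higher too. Of 84 tested, 69 were higher in females (82.1%, against 7.78% over all genes) and 1 lower (1.19%, against 4.62%). The median log2 difference was 0.95. Among the higher were 31 of 34 genes of the small subunit and 36 of 46 of the large subunit. rps12 was at 9035, 10295 and 10418 FPKM in females and 3309, 3457 and 4138 FPKM in males (log2 difference 1.45, SE 0.16, adjusted p = 0.00482), rpl15 at 5551, 5609 and 6319 FPKM in females and 2234, 2353 and 2165 FPKM in males (log2 difference 1.37, SE 0.15, adjusted p = 0.00482), and the sexes did not overlap for either. faua, which encodes a small-subunit protein fused to a ubiquitin-like one, and rps20 differed by 1.31 and 1.42. The exception was rps8b, at 2.08, 3.63 and 1.96 FPKM in females and 10.98, 9.67 and 8.02 FPKM in males; its paralog rps8a was at 4801, 3930.4 and 3255 FPKM in females and 1838, 1876 and 1917 FPKM in males, and both were named after their values were seen. The call of rps8b was lost without female replicate 1 (adjusted p = 0.0536), male replicate 1 (0.0502) or male replicate 2 (0.0501). Together the list made up 44.0% to 47.6% of the summed FPKM of a female library and 26.7% to 31.6% of that of a male library. These sums hold nothing for genes listed at exactly 0, among them the vitellogenins in females and pmepa1, apoa2 and apoa1b in males. What those values of 0 do to the shares was not tested. The count of higher genes was 29 without female replicate 1, 28 without male replicate 1 and 32 without male replicate 2, 3 without both intestine-rich females with a median of 0.98, 29 after quantile normalization and 42 after scaling without the 10 highest genes.

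Some translation factors and genes of amino acid supply were higher as well. Of 62 translation factors tested, 15 were higher (24.2%, against 7.78% over all genes) and none lower (against 4.62%), with a median of 0.73. Of the elongation factors, eef1b2, an exchange factor of elongation factor 1, was at 2120.0, 1947 and 2197 FPKM in females and 695, 705 and 757 FPKM in males (log2 difference 1.54, SE 0.17, adjusted p = 0.00482), and eef1g differed by 1.42 and eef2b by 1.14, the last losing its call without female replicate 1 (adjusted p = 0.0576) or male replicate 2 (0.05696). The count was 5 without female replicate 1 or male replicate 1, 9 without female replicate 3 and 4 without male replicate 2. Of 23 genes of serine, one-carbon and amino acid synthesis, 7 were higher (30.4%) and 1 lower (4.35%), with a median of 1.06. slc3a2b, the heavy chain of amino acid exchangers, was at 16.6, 26.3 and 24.5 FPKM in females and 3.19, 3.199 and 2.51 FPKM in males. The difference for slc3a2b was 2.54 (log2, SE 0.26, adjusted p = 0.00388). aldh18a1, which opens proline synthesis, and atf4b1, a copy of the amino acid response factor ATF4, differed by 1.64 and 1.62. These 3 kept their calls in every fit that left out 1 library; with the intestine covariate 1 of the 3 kept it, and without both intestine-rich females 1. The count of higher genes was 4 without male replicate 2.

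**Figure D4:**
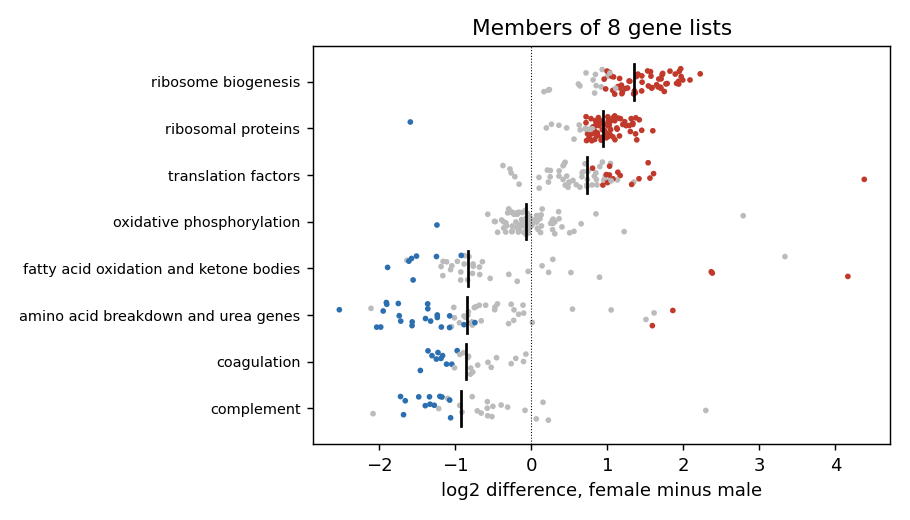
Log2 difference, female minus male, of each tested member of 8 gene lists, in red or blue where past the threshold and grey where not, with a black bar at the list's median and random vertical scatter. Members of ribosome biogenesis lie wholly above 0 (median 1.36), oxidative phosphorylation is centred near 0 (-0.07), and all coagulation genes lie below it (-0.86).

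In the secretory pathway a minority of genes were higher in females. Of 55 genes tested, 8 were higher (14.5%, against 7.78% over all genes) and none lower (against 4.62%). The median was 0.27 and became -0.03 after scaling without the 10 highest genes. It became 0.49 with the intestine covariate, 0.51 without both intestine-rich females, 0.58 without female replicate 2 and 0.49 without male replicate 1. mcfd2, part of a cargo receptor that carries coagulation factors out of the endoplasmic reticulum, was at 252, 129 and 208 FPKM in females and 49.6, 45.6 and 42.98 FPKM in males. The difference for mcfd2 was 2.02 (log2, SE 0.29, adjusted p = 0.008195). With the intestine covariate it became 2.15 and the call was lost by limma (adjusted p = 0.0561). sec61g, a subunit of the channel through which proteins enter that organelle, was at 3705, 1775 and 3104 FPKM in females and 1164, 952 and 1049 FPKM in males (log2 difference 1.38, SE 0.28, adjusted p = 0.0205), and its call was lost without female replicate 1 (adjusted p = 0.0685), male replicate 1 (0.0607) or male replicate 2 (0.0744). The count of higher genes was 1 without female replicate 1 or male replicate 1 and 2 without male replicate 2. Of 43 genes of protein folding and the unfolded protein response, 1 was higher (2.33%) and 2 were lower (4.65%). The shares over all genes were 7.78% and 4.62%. xbp1, the transcription factor that expands the endoplasmic reticulum, was the higher one, at 567, 327 and 631 FPKM in females and 80.6, 83.4 and 179 FPKM in males (log2 difference 2.19, SE 0.39, adjusted p = 0.0145), and its call was lost without female replicate 1 (adjusted p = 0.0547), male replicate 1 (0.0525) or male replicate 2 (0.0533). The chaperone gene hspa5, chosen after its values were seen, was at 72.5, 118 and 207 FPKM in females and 49.3, 65.3 and 129 FPKM in males and overlapped.

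Many genes of amino acid breakdown were lower in females. Of 56 tested, 22 were lower (39.3%, against 4.62% over all genes) and 2 higher (3.57%, against 7.78%). The median log2 difference was -0.85. bhmt, which remethylates homocysteine from betaine, was at 1000.0, 1055 and 1549 FPKM in females and 5002, 4146 and 5427 FPKM in males (log2 difference -2.03, SE 0.22, adjusted p = 0.00482). amdhd1, of histidine breakdown, was at 15.3, 15.3 and 24.7 FPKM in females and 67.6, 74.8 and 67.9 FPKM in males, and haao, of tryptophan breakdown, was at 18.7, 23.7 and 18.1 FPKM in females and 77.4, 60.8 and 67.3 FPKM in males (log2 differences -1.902 and -1.72). gstz1, of tyrosine breakdown, differed by -1.57, and the tyrosine enzyme hpda by -1.36. The sexes did not overlap for any of these 5, and each call held whichever library was left out; with the intestine covariate 1 of the 5 kept it, and without both intestine-rich females 1. The summed level of the list was 8725 to 13536 FPKM in females and 20405 to 22807 in males. The count of lower genes was 10 without female replicate 1 or male replicate 2 and 8 without male replicate 1, and 1 without both intestine-rich females, with a median there of -0.56.

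Many genes of plasma proteins were lower in females and few were higher. In the complement list 12 of 32 tested genes were lower (37.5%) and none higher (median -0.93). In the coagulation list 10 of 26 were lower (38.5%) and none higher (median -0.86), all 26 having a lower mean in females. Over all genes 4.62% were lower and 7.78% higher. c8a, a chain of the membrane attack complex, was at 114, 76.3 and 111 FPKM in females and 371, 303 and 275 FPKM in males. The difference for c8a was -1.66 (log2, SE 0.25, adjusted p = 0.00919). With the intestine covariate it became -1.52 and the call was lost by limma (adjusted p = 0.0827). cfh, which restrains the alternative pathway, was at 73.96, 78.9 and 141 FPKM in females and 301, 301 and 307 FPKM in males, the males being nearly equal. The difference for cfh was -1.68 (log2, SE 0.28, adjusted p = 0.0127). fga, fgb and fgg, the 3 chains of fibrinogen, differed by -1.17, -1.19 and -1.31; fgb was at 2009, 1517 and 2225 FPKM in females and 5066, 4773 and 3322 FPKM in males (log2 difference -1.19, SE 0.23, adjusted p = 0.0186). serpinc1, antithrombin, was at 243, 159 and 252 FPKM in females and 790.3, 579 and 447 FPKM in males. The call of cfh was lost without female replicate 1 (adjusted p = 0.0507). Those of fga, fgb, fgg and serpinc1 were lost without female replicate 1 (adjusted p = 0.0547 to 0.0549), without male replicate 1 (adjusted p = 0.0617 to 0.0711) or without male replicate 2 (adjusted p = 0.0666 to 0.0701).

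The complement count was 2 without female replicate 1 or male replicate 1, 6 without female replicate 2 and 3 without male replicate 2. For coagulation the count was 0 without female replicate 1 (with 16 at an unadjusted p under 0.05 by limma) and 5 without female replicate 2. It was also 0 without male replicate 1 (with 14 at that level) and without male replicate 2 (with 15). The coagulation median could not rise above 0 in these fits, since 20 of the 26 genes were lower in females without overlap. Without both intestine-rich females neither list had a call by limma (with 9 at an unadjusted p under 0.05 for complement and 7 for coagulation), and the medians were -0.54 and -0.65. Apolipoproteins and other plasma proteins had 15 of 38 lower (39.5%, against 4.62% over all genes) and 1 higher (2.63%, against 7.78%). apoc1l, an apolipoprotein C gene, was at 4886, 6342 and 5451 FPKM in females and 14907, 19757 and 13848 FPKM in males (log2 difference -1.53, SE 0.19, adjusted p = 0.00646) and ces3, a carboxylesterase, at 282, 209.5 and 269 FPKM in females and 865, 744 and 649 FPKM in males (log2 difference -1.57, SE 0.22, adjusted p = 0.008195); both calls held in every fit that left out 1 library; with the intestine covariate 1 of the 2 kept it, and without both intestine-rich females 1. ahsg, fetuin, was at 972, 865 and 1305 FPKM in females and 2177, 2122 and 1903 FPKM in males and lost its call without female replicate 1 (adjusted p = 0.07495), male replicate 1 (0.0779) or male replicate 2 (0.0786). The count of lower genes was 4 without female replicate 1 or male replicate 2, 6 without female replicate 2 and 3 without male replicate 1. Of 25 hepatocyte markers tested, many of them the same plasma proteins, 12 were lower and none higher (median -0.93); the count was 3 without female replicate 1, male replicate 1 or male replicate 2 and 7 without female replicate 2.

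In carbohydrate metabolism, 10 of 42 genes of glycolysis and gluconeogenesis were lower in females (23.8%) and 4 higher (9.52%). Over all genes the shares were 4.62% and 7.78%. The lower ones included eno3, an enolase, at 545, 567 and 561 FPKM in females and 1374, 1189 and 1347 FPKM in males (log2 difference -1.22, SE 0.18, adjusted p = 0.00839), and pcxb, a pyruvate carboxylase, which opens gluconeogenesis, at 4.45, 1.64 and 4.01 FPKM in females and 20.6, 16.6 and 13.5 FPKM in males. The difference for pcxb was -2.09 (log2, SE 0.34, adjusted p = 0.0112). The higher ones included pkma, a muscle-type pyruvate kinase, at 73.96, 109 and 51.2 FPKM in females and 17.1, 17.7 and 15.1 FPKM in males. The difference for pkma was 2.099 (log2, SE 0.31, adjusted p = 0.00868). These 3 genes kept their calls in all fits that left out 1 library. All 3 lost them with the intestine covariate (adjusted p = 0.0705, 0.0887 and 0.0715 for eno3, pcxb and pkma) and without both intestine-rich females (0.09104, 0.0993 and 0.107). pck1, the phosphoenolpyruvate carboxykinase of gluconeogenesis, was also higher and was named after its values were seen, at 1465, 1949 and 3183 FPKM in females and 382, 48.4 and 390.4 FPKM in males (log2 difference 3.42, SE 0.76, adjusted p = 0.0259); its call was lost without female replicate 1 (adjusted p = 0.06505), female replicate 2 (0.0591), female replicate 3 (0.0536) or male replicate 1 (0.050003). The count of lower genes was 3 without female replicate 1 or male replicate 2 and 4 without male replicate 1.

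In lipid metabolism, 5 of 32 genes of fatty acid and triglyceride synthesis were lower (15.6%, against 4.62% over all genes) and 2 higher (6.25%, against 7.78%). The lower ones included elovl6, me1 and zgc:193616, for which the RefSeq table gives the synonym thrsp, a gene known from mammals as a regulator of fat synthesis. zgc:193616 was at 276, 178 and 451 FPKM in females and 4460.0, 15983 and 10511 FPKM in males (log2 difference -5.01, SE 0.497, adjusted p = 0.00346), and its call held in every fit that left out 1 library. acaca, the acetyl-CoA carboxylase that commits carbon to fatty acids, was lower too, at 143, 95.01 and 202 FPKM in females and 319, 437 and 435 FPKM in males (log2 difference -1.48, SE 0.31, adjusted p = 0.0216), a call lost without female replicate 1 (adjusted p = 0.0718), male replicate 1 (0.0523), male replicate 2 (0.0791) or male replicate 3 (0.0516); it and zgc:193616 were named after their values were seen. mid1ip1l, whose product helps acetyl-CoA carboxylase to form filaments, was higher, at 108, 139 and 119 FPKM in females and 18.6, 14.7 and 23.95 FPKM in males (log2 difference 2.63, SE 0.26, adjusted p = 0.00346), without overlap. Its call held in every fit that left out 1 library, but not without both intestine-rich females (adjusted p = 0.0604). agpat2, an acyltransferase of phospholipid and triglyceride synthesis, was higher too (1.49), a call lost without female replicate 1 (adjusted p = 0.0536). In fatty acid oxidation, 7 of 40 were lower (17.5%, against 4.62% over all genes) and 3 higher (7.5%, against 7.78%), with a median of -0.83. decr1, a reductase for unsaturated fatty acids, was at 8.73, 7.798 and 9.24 FPKM in females and 49.9, 36.5 and 22.4 FPKM in males (log2 difference -1.89, SE 0.32, adjusted p = 0.0124), and crata, carnitine acetyltransferase, at 7.52, 8.22 and 6.48 FPKM in females and 29.4, 22.5 and 22.4 FPKM in males (log2 difference -1.61, SE 0.24, adjusted p = 0.00886), both lower in all females. Higher was acsl5, an acyl-CoA synthetase that starts either pathway, at 19.2, 30.5 and 9.87 FPKM in females and 0.105, 0.0519 and 0.0377 FPKM in males (log2 difference 4.16, SE 0.38, adjusted p = 0.002399). With the intestine covariate decr1 and crata had log2 differences of -1.86 and -1.77 and lost their calls by limma (adjusted p = 0.0877 and 0.0561). acsl5 kept its call there (3.42, adjusted p = 0.00833). For synthesis, lower genes numbered 3 without female replicate 1, male replicate 1 or male replicate 2. For oxidation they numbered 2 without female replicate 1, male replicate 1 or male replicate 2, 4 without female replicate 2, 3 without female replicate 3 and 13 without male replicate 3, and 22 after scaling without the 10 highest genes.

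Cholesterol synthesis had 3 of 34 genes higher (8.82%, close to the 7.78% over all genes) and none lower, with a median of 0.82. sqlea, squalene epoxidase, was at 79.6, 56.9 and 29.1 FPKM in females and 0.564, 15.7 and 0.773 FPKM in males, with male replicate 2 well above the other males (log2 difference 3.85, SE 0.87, adjusted p = 0.0269), and lost its call without female replicate 1 (adjusted p = 0.0909), female replicate 2 (0.0669), male replicate 1 (0.0873) or male replicate 3 (0.0666). ldlrb, a receptor gene for low-density lipoprotein, was at 5.01, 8.299 and 10.7 FPKM in females and 1.03, 1.73 and 1.76 FPKM in males (log2 difference 1.804, SE 0.304, adjusted p = 0.0127), and its call was lost without male replicate 1 (adjusted p = 0.0502). soat1, which esterifies cholesterol, differed by 2.35 and lost its call without female replicate 1 (adjusted p = 0.105), female replicate 3 (0.0696), male replicate 2 (0.0943) or male replicate 3 (0.0669). The count was 1 without female replicate 1, male replicate 1 or male replicate 3 and 6 without male replicate 2. Of 21 genes of bile acids and sterol export, 5 were lower (23.8%, against 4.62% over all genes) and 1 higher (4.76%, against 7.78%). cyp8b2 is a copy of the 12α-hydroxylase that sets the kind of bile acid. It was at 1.001, 0.939 and 1.49 FPKM in females and 5.203, 4.99 and 4.14 FPKM in males. The difference for cyp8b2 was -1.44 (log2, SE 0.22, adjusted p = 0.00988). With the intestine covariate it became -1.25 and the call was lost by limma (adjusted p = 0.0877). The count of lower genes was 2 without female replicate 1, male replicate 1 or male replicate 2 and 3 without female replicate 2 or female replicate 3.

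**Figure D5:**
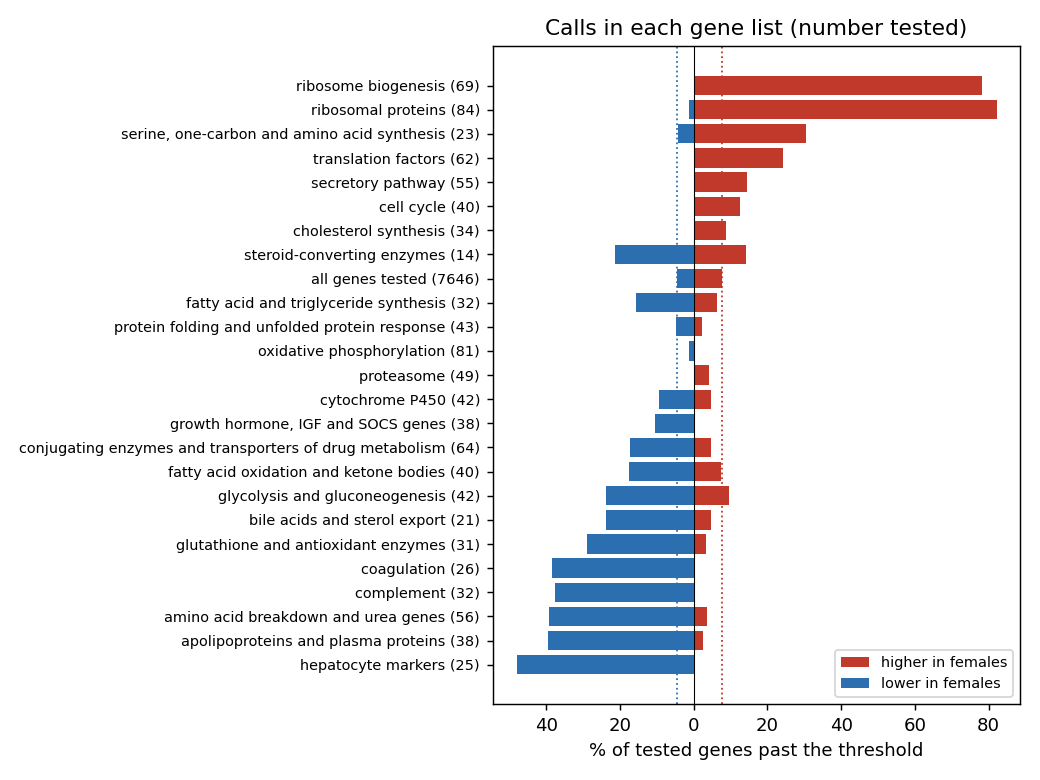
Percentage of the tested genes of each list that were past the threshold, higher in females to the right in red and lower to the left in blue, with the number tested in parentheses and dotted lines at the shares over all genes (7.78% and 4.62%). Lists of the ribosome extend to the right and lists of plasma proteins and amino acid breakdown to the left.

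In drug metabolism, single genes differed widely. Of 42 cytochrome P450 genes tested, 2 were higher (4.76%, against 7.78% over all genes) and 4 lower (9.52%, against 4.62%), with a median of -0.203, and the extremes were cyp2k6 and cyp2k22. cyp2aa2 and cyp1d1 were lower by smaller steps (-1.48 and -1.34), and cyp2aa2 lost its call without female replicate 1 (adjusted p = 0.0571), male replicate 1 (0.05701) or male replicate 2 (0.0576) and cyp1d1 without female replicate 1 (adjusted p = 0.0837), female replicate 2 (0.0503), male replicate 1 (0.0618) or male replicate 2 (0.0781). Of 64 conjugating enzymes and transporters, 11 were lower (17.2%) and 3 higher (4.69%). ugt1a4 was at 9.96, 9.198 and 10.5 FPKM in females and 83.03, 60.999 and 87.4 FPKM in males (log2 difference -2.83, SE 0.24, adjusted p = 0.00174), and 2 glucuronosyltransferases of the ugt5b cluster, ugt5b4 and ugt5b3, differed by -2.402 and -1.76, all 3 without overlap. Each call held in the fits that left out 1 library; ugt5b3 lost its call with the intestine covariate (adjusted p = 0.0628) and without both intestine-rich females (0.0961). Among 31 genes of glutathione and antioxidant defence, 9 were lower (29.0%) and 1 higher (3.23%). txn, thioredoxin, was at 124, 112 and 194 FPKM in females and 502, 619.6 and 588 FPKM in males (log2 difference -2.02, SE 0.26, adjusted p = 0.00784), nqo1, a quinone reductase, at 12.9, 15.8 and 11.9 FPKM in females and 74.4, 51.99 and 44.6 FPKM in males (log2 difference -1.97, SE 0.27, adjusted p = 0.00799), and prdx4, the peroxiredoxin of the endoplasmic reticulum, was the higher one, at 299, 237 and 330.1 FPKM in females and 103, 65.9 and 75.3 FPKM in males. The difference for prdx4 was 1.83 (log2, SE 0.26, adjusted p = 0.008195). With the intestine covariate nqo1 and prdx4 had log2 differences of -2.15 and 2.02 and lost their calls by limma (adjusted p = 0.0513 for both). Without both intestine-rich females the differences were -2.13 and 2.03. Lower P450 genes numbered 1 without female replicate 1, male replicate 1 or male replicate 2. Lower conjugating genes numbered 5 without female replicate 1, 6 without male replicate 1 and 7 without male replicate 2, and lower antioxidant genes 5 without female replicate 1, 4 without female replicate 2 and 3 without male replicate 1 or male replicate 2.

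The listed components of the signalling route in the study's title showed few differences at the level of transcripts. Of 46 components of PI3K, AKT and mTOR signalling, 1 was higher and 1 lower (2.17% each, against 7.78% and 4.62% over all genes). The median log2 difference was -0.100. The higher one was the ribosomal protein gene rps6, and the lower one sesn1, a sestrin that restrains mTOR complex 1. eif4ebp3, described above with a log2 difference of 4.38, was counted with the translation factors and is not among these 46. sesn1 was at 5.85, 4.65 and 6.86 FPKM in females and 42.9, 38.5 and 12.9 FPKM in males, lowest among males in replicate 3 (log2 difference -2.104, SE 0.44, adjusted p = 0.0218), and lost its call without female replicate 1 (adjusted p = 0.0731), female replicate 2 (0.0593), male replicate 1 (0.0742) or male replicate 2 (0.0791). rps6 was at 4193, 4243 and 4139 FPKM in females and 1893, 2171 and 2089 FPKM in males (log2 difference 1.03, SE 0.16, adjusted p = 0.00924). In the growth hormone and IGF list, 4 of 38 were lower (10.5%, against 4.62% over all genes) and none higher (against 7.78%). jak1, a kinase of cytokine receptors, was at 4.98, 2.69 and 3.96 FPKM in females and 13.9, 11.5 and 9.81 FPKM in males (log2 difference -1.400, SE 0.27, adjusted p = 0.0181), a call lost without male replicate 1 (adjusted p = 0.0667) or male replicate 2 (0.0671), and ghra, a growth hormone receptor, at 1.25, 1.63 and 2.02 FPKM in females and 4.17, 4.02 and 4.74 FPKM in males (log2 difference -1.02, SE 0.22, adjusted p = 0.0249), a call lost without female replicate 1 (adjusted p = 0.0907), female replicate 2 (0.06099), male replicate 1 (0.07705) or male replicate 2 (0.0795). Lower genes in that list numbered 1 without female replicate 1, 2 without female replicate 2, 0 without male replicate 1 (with 7 at an unadjusted p under 0.05), 0 without male replicate 2 (with 11 at an unadjusted p under 0.05) and 12 without male replicate 3. Oxidative phosphorylation had 1 of 81 lower (1.23%) and none higher, and the proteasome 2 of 49 higher (4.08%) and none lower. These shares were below those over all genes. The medians of the 2 lists lay near 0, at -0.07 and -0.12. Leukocyte (23 tested), endothelial (18) and red blood cell markers (11) had no call.

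The 18 genes set apart include some of the most abundant of the table and carry no fold or test, since an exact 0 can be a failed estimate. apoa2 and apoa1b, the genes of 2 apolipoproteins of high-density lipoprotein, were listed at 16994, 21590.2 and 20227 FPKM and 12585, 12217 and 13352 FPKM in females and at 0 in all males. pmepa1 was listed at 26409, 15388 and 35286 FPKM in females and also at 0 in all males. The vitellogenins, the yolk precursors made by female liver, were listed the other way: vtg1 at 310.3, 41.1 and 34.97 FPKM and vtg2 at 78.4, 29.7 and 18.7 FPKM in males, and vtg4, vtg5, vtg6 and vtg7 between 2.85 and 65.9 FPKM, with all 6 at 0 in every female. That order is the reverse of the known biology of these genes, and of nots and esr1 in the same libraries. All 6 vitellogenins were also at 0 in every estradiol library of both sexes. In the estradiol males, apoa2, apoa1b and pmepa1 were listed at 4752 to 45609 FPKM. Why the values of 0 arose was not tested. The opsin-like gene rgra was also at 0 in females. zp3a.2 and zp2.5, egg coat genes on the ovary list, were at 7.37, 39.3 and 2.37 and 2.33, 13.97 and 1.34 FPKM in females, highest in female replicate 2, and at 0 in males. The other 6 carry clone names.

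Under estradiol the same comparison of females with males, in the other 6 libraries, found 0 of 8426 genes past the threshold by limma (0%), with 326 at an unadjusted p under 0.05 and a lowest adjusted p of 0.123. The sexes did not overlap for 12.1% of those genes. Of the 595 genes higher in females under DMSO, 579 were tested under estradiol and 322 had the same sign there (55.6%); of the 353 lower ones, 325 were tested and 232 had the same sign (71.4%). Over all genes tested in both, 53.9% had the same sign, and 33.4% were positive under estradiol. The median log2 difference was 1.33 under DMSO and 0.08 under estradiol for the higher genes, and -1.40 and -0.41 for the lower. Ribosomal proteins had medians of 0.95 and 1.08, ribosome biogenesis 1.36 and 0.22, complement -0.93 and -1.13, and amino acid breakdown -0.85 and 0.14. Under estradiol the mean log2(FPKM + 1) of the ribosomal protein list was 12.63, 10.95 and 10.97 in females. In males it was 9.29, 11.20 and 10.99. For complement it was 4.02, 4.83 and 5.09 in females and 4.24, 6.81 and 5.38 in males. The sexes overlapped on both lists. The estradiol libraries held other-organ transcripts too, with ovary levels of 0.25 to 5.15 in females and 1.23 to 5.33 in males, and their part in these values was not tested.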

How the data were processed

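RNA of whole liver was sequenced from directional libraries, per the labels' protocols. Per the submitters' processing notes, the authors used cutadapt, TopHat2 2.0.11 and Cufflinks 2.2.1 with the danRer7 genome build. The deposited table holds 1 FPKM value per gene symbol and library; the header names no unit, so the unit rests on the range of the values and on the use of Cufflinks. The annotation and any scaling between libraries are not given in the sources used here. FPKM are relative to a library's total, so a larger share of one class lowers the values of the rest.

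Genes reaching 1 FPKM in 3 or more of the 6 libraries were kept, genes at exactly 0 in a whole sex were set apart, and log2(FPKM + 1) was fitted with 2 group means in limma 3.58.1 (R 4.3.3; eBayes with an intensity trend). Differences are female minus male on that scale, which understates differences of low genes. "Call" means a Benjamini-Hochberg adjusted p under 0.05 over the 7646 genes. The fit was tested on simulated data with independent noise for each gene and library. Such data hold no effect shared by a whole library, so they cannot test for one. Estradiol libraries had a fit of their own, and an interaction of sex and treatment was fitted to all 12. Tables and figures used Python 3.11.15, pandas 2.3.3, numpy 2.4.6 and matplotlib 3.10.9. Of 14581 symbols, 14211 matched a symbol or synonym of the RefSeq gene table; no coordinates or sequences were used here.

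Genes were named by rule. Taken first were the 12 largest calls in each direction with no overlap and no clone name. A mean of 5 FPKM or more in the higher sex was required of these. Up to 4 members with the smallest p of each of 52 gene lists were added. Every tested gene of the list of steroid receptors and related genes was named too, as were set-apart genes. Some are left out for length, and some are not reported here. The genes and lists were chosen with earlier results of these data known. Alternatives covered the pseudocount, filter, scaling, eBayes options, array weights, a replicate block, an intestine covariate, and leaving out libraries.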

Additional observations from a re-analysis of the deposited data

Results flagged for a closer look

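The sex difference itself differed between DMSO and estradiol for 10 of the genes named, by the interaction term of a limma fit to all 12 libraries, in which 17 of 7646 genes passed the threshold. The term is the female minus male log2 difference under estradiol less that under DMSO. These 10 genes were named for their large differences in the same DMSO libraries. That choice by itself pushes the term toward the opposite sign, so its sign and size are not independent of the naming. Genes higher in females under DMSO had negative terms: nots -8.43 (SE 0.94, adjusted p = 0.00255), cyp2k6 -5.28 (SE 0.81, adjusted p = 0.0188), esr1 -4.79 (SE 0.84, adjusted p = 0.0403), ppm1la -4.27 (SE 0.63, adjusted p = 0.0161) and rcn3 -4.12 (SE 0.74, adjusted p = 0.04396). Under estradiol, nots was at 1186 to 3750.1 FPKM in females and 718 to 3610.4 in males, cyp2k6 at 8.68 to 14.7 FPKM in females and 4.31 to 27.8 in males and esr1 at 10.3 to 13.3 FPKM in females and 4.402 to 36.4 in males, with the sexes overlapping for all 3, while rcn3 was at 73.1 to 163 FPKM in females and 26.1 to 60.6 in males without overlap. ppm1la was at 8.34 to 24.5 FPKM in females and 11.11 to 14.8 in males, with overlap.

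Genes lower in females under DMSO had positive terms: cyp2k22 6.92 (SE 0.800, adjusted p = 0.00259), slc25a48 6.38 (SE 0.896, adjusted p = 0.0127), elovl6 6.35 (SE 1.09, adjusted p = 0.0383), me1 5.82 (SE 0.78, adjusted p = 0.009399) and hsd17b3 5.58 (SE 0.53, adjusted p = 8.98e-04). Under estradiol, cyp2k22 was at 0.0187 to 0.141 FPKM in females and 0.0523 to 0.118 in males, hsd17b3 at 0.0154 to 0.1899 FPKM in females and 0.0519 to 0.323 in males, elovl6 at 0 to 4.14 FPKM in females and 0.293 to 1.86 in males and me1 at 2.83 to 3.51 FPKM in females and 0.771 to 2.66 in males. slc25a48 was at 77.7 to 167 FPKM in females and 4.22 to 16.5 in males, so its order between the sexes was the reverse of that under DMSO. The labels number the libraries of the 2 treatments in separate ranges and do not say what the numbers mark, so a difference that goes with them and one of treatment cannot be told apart.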

How the results depend on the processing

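The 948 calls (595 higher, 353 lower) became 614 (382 and 232) with no filter on low values, 1512 (865 and 647) with array weights, 76 (46 and 30) with the intestine covariate, 48 (25 and 23) without both intestine-rich females, 23 (13 and 10) with limma treat against a log2 difference of 1, and 69 (30 and 39) with all 12 libraries in the fit. Scaling to a common sum without the 10 highest genes gave 398 higher and 819 lower. Leaving out 1 library gave 268 to 908 calls, 163 to 575 higher and 96 to 477 lower. A pseudocount of 0.1, a minimum of 5 FPKM, and quantile and median-of-ratios scaling each gave counts within 1.5 times the first. So did eBayes without a trend or robust, zeros kept, and leaving out other-organ genes held under their list names. Of 130 named genes with a call, 30 kept it with the covariate and 22 without both females. The cause of these changes was not tested. Some of the fits hold fewer libraries or degrees of freedom, while the fit to all 12 libraries holds more. With a replicate block the counts were 972, 604 and 368. Deviations from the sex mean correlated at 0.180, 0.0854 and 0.199 between same-numbered libraries of the 2 sexes. Between differently numbered ones they correlated at -0.309 to 0.180. The numbers were not taken as pairs in the main fit, and whether they mark anything shared was not tested. With 3 libraries a sex and no counts, small differences and low genes are measured poorly.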

Other observations

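Further gene groups differed in single members. In the thyroid hormone list, 3 of 10 genes were lower in females and none higher; dio1, the deiodinase that activates thyroid hormone, was at 89.3, 109.6 and 77.4 FPKM in females and 303, 289 and 194 FPKM in males (log2 difference -1.49, SE 0.26, adjusted p = 0.0145), a call lost without female replicate 1 (adjusted p = 0.05396), male replicate 1 (0.0539) or male replicate 2 (0.0574). Another of the 3 is zgc:193616, described above with fat synthesis. The 3 of 10 are 30% of the list, against 4.62% lower over all genes. In the iron and heme list 3 of 24 were lower, among them steap4, a metal reductase, at 11.7, 7.502 and 15.9 FPKM in females and 44.2, 44.5 and 67.9 FPKM in males. The difference for steap4 was -2.09 (log2, SE 0.32, adjusted p = 0.00978). The 3 of 24 are 12.5% of that list. Of 32 acute phase and innate genes, 7 were lower and none higher; crp2, a C-reactive protein gene, was at 52.2, 54.4 and 129.9 FPKM in females and 405, 417 and 223 FPKM in males (log2 difference -2.21, SE 0.41, adjusted p = 0.0161) and lost its call without female replicate 1 (adjusted p = 0.0601), male replicate 1 (0.0609) or male replicate 2 (0.06202). The 7 are 21.9% of the list, and their count was 1 without female replicate 1, male replicate 1 or male replicate 2.

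Cell cycle genes had 5 of 40 higher (12.5%, against 7.78% over all genes) and none lower (median 0.59). The count was 0 without female replicate 1 (with 17 at an unadjusted p under 0.05 by limma). It was also 0 without male replicate 1 (with 11 at that level). It was 2 without female replicate 2, 8 without female replicate 3 and 1 without male replicate 2. rrm2, a subunit of ribonucleotide reductase, was at 8.05, 18.99 and 2.45 FPKM in females and 0.441, 0.844 and 1.32 FPKM in males, highest in female replicate 2 as the ovary list was (log2 difference 2.22, SE 0.57, adjusted p = 0.0431), and lost its call without female replicate 1 (adjusted p = 0.117), female replicate 2 (0.0711), male replicate 1 (0.129), male replicate 2 (0.115) or male replicate 3 (0.0659). Its log2 difference became 1.05 with the intestine covariate and 0.91 without female replicates 1 and 2, the females with the higher ovary levels. Heat shock genes went both ways, with 5 of 27 higher (18.5%) and 2 lower (7.41%). hsp90aa1.2 was at 1.89995, 3.001 and 2.75 FPKM in females and 0.221, 0.219 and 0.539 FPKM in males (log2 difference 1.42). hsc70 was at 0.633, 1.68 and 2.48 FPKM in females and 12.6, 15.8 and 14.3 FPKM in males (log2 difference -2.61). Of 36 mitochondrial carriers, 2 were higher (5.56%) and 3 lower (8.33%), against 7.78% and 4.62% over all genes; slc25a34 was at 20.5, 12.3 and 19.6 FPKM in females and 69.7, 74.4 and 62.6 FPKM in males. The difference for slc25a34 was -1.95 (log2, SE 0.27, adjusted p = 0.00799).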
